A study of Sus scrofa with 12 samples.

Results

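The m6A readers described here are RNA-binding proteins that recognise m6A, the N6-methylated form of adenosine found in mRNA, or that bind methylated transcripts preferentially. The genes were chosen by name, as members of the YTH and IGF2BP families together with ELAVL1 and PRRC2A. Earlier results of these data were known at that point. Of 10 listed genes, 9 were found by symbol among the 18060 genes with expression values, and IGF2BP1 was not analysed here. The cells were primary follicular granulosa cells, the somatic cells around the oocyte, taken from antral follicles of Duroc × Yorkshire × Landrace sows (Sus scrofa). Cultures stood for 12 h at 21% O2 (normoxia) or 1% O2 (hypoxia) and 5% CO2, and the labels name no genetic change in either. There were 3 replicates per condition, labelled as biological, with 2 libraries from each: the input, made from poly(A)-selected fragments and used here for expression, and the immunoprecipitate (IP) pulled down with an antibody to m6A. The labels do not say if the replicates are separate animals, so p-values measure only the spread between these samples.

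The YTH proteins hold the methylated adenosine in an aromatic pocket of their YTH domain. YTHDF1, YTHDF2 and YTHDF3 are cytoplasmic paralogs that act on translation and, through deadenylation, on mRNA decay. YTHDC1 is nuclear and acts on splicing and export, and YTHDC2 is a helicase best known from germ cells. The IGF2BP proteins carry KH domains and stabilise the mRNAs they bind. ELAVL1, also called HuR, binds AU-rich elements and protects transcripts from decay, and PRRC2A is a large RNA-binding protein reported to bind m6A.

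Expression was read as FPKM, a fragment measure scaled for gene length and for library size, so that levels of different genes can be compared. The FPKM hold no fragment counts, and library depth is unknown. Genes reaching 1 FPKM in 3 or more of the 6 input libraries were tested (10196 genes), and a gene was called at an adjusted p under 0.05 (limma on log2(FPKM + 1), Benjamini-Hochberg adjustment over all tested genes). The median log2 fold change of all tested genes was -0.26, and it was 0.02 after each library was divided by a median-ratio factor. The median FPKM of the tested genes was 6.38 to 6.85 in normoxia, 5.37 and 6.01 in hypoxia libraries 1 and 2, and 4.50 in hypoxia library 3. The hypoxia-induced genes VEGFA, SLC2A1 and BNIP3 were 14.0, 7.18 and 25.1 times as high in hypoxia as in normoxia. Among 10 granulosa markers, FSHR (8.98 to 10.3 FPKM in normoxia), FOXL2 (6.01 to 7.80) and NR5A1 (11.2 to 14.4) were present, while AMH and CYP19A1 stayed under 0.5 FPKM in every library. The list summed to 319 to 519 FPKM in normoxia and 134 to 289 in hypoxia, most of it CYP11A1 (246 to 444 and 68.4 to 232 FPKM). Of its 7 tested genes 2 fell, FSHR and AMHR2, against 21.1% called lower over all tested genes, and 0 were called lower after median-ratio scaling. The 5 fibroblast and smooth muscle markers summed to 289 to 376 and 244 to 276 FPKM (1 rose and 1 fell), the theca markers to 9.35 to 14.8 and 12.0 to 27.8, and the endothelial ones to 6.31 to 6.93 and 2.90 to 3.16, nearly all from PECAM1. Leukocyte markers (4 of 5 found) summed to 3.62 to 4.61 and 2.77 to 7.53 FPKM. Of these, CD14 had 2.59 to 3.68 and 1.22 to 2.84, and CD68 0.803 to 1.25 and 1.22 to 3.55. CSF1R had at most 1.14 and PTPRC at most 0.0768. Oocyte markers (2 of 5 found) summed to 1.12 to 1.41 and 0.560 to 1.33 FPKM. Nearly all of that came from GDF9 (1.12 to 1.38 and 0.560 to 1.33), with DDX4 at most 0.0343. The part that a change in cell make-up had in the reader levels was not tested.

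The readers spanned a wide range of mRNA levels. In normoxia PRRC2A was highest, followed by ELAVL1 and YTHDC1, with no overlap between the libraries of neighbours in that order. The 3 YTHDF genes came next, at means of 7.71 (YTHDF1), 7.43 (YTHDF3) and 6.77 FPKM (YTHDF2), and their ranges overlapped. YTHDC2 (0.996 FPKM) and IGF2BP2 (0.725) lay about an order of magnitude lower; their ranges overlapped, although YTHDC2 was the higher of the pair in 3 of 3 normoxia libraries. IGF2BP3 was close to 0. In hypoxia the ranges of ELAVL1 (mean 14.2 FPKM) and YTHDC1 (13.6) overlapped, as did those of YTHDC1 and YTHDF3 and of the YTHDF genes among themselves. IGF2BP2 (2.13) lay under YTHDF2 and stood above YTHDC2 (1.03), each in 3 of 3 libraries with no overlap.

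**Figure D1:**
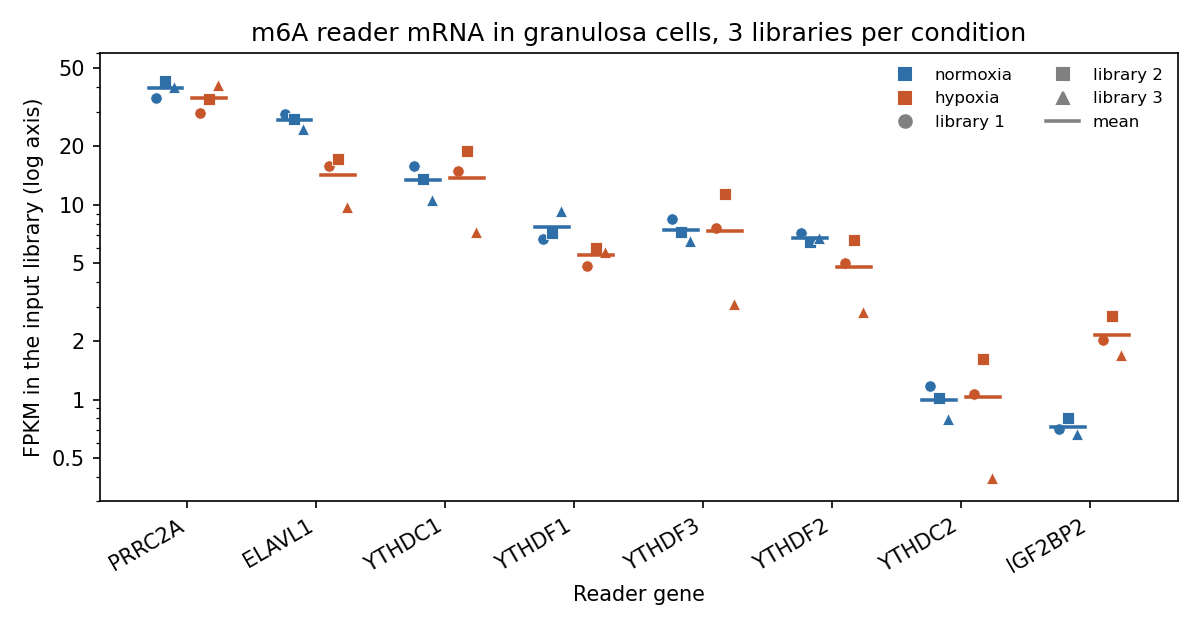
FPKM of 8 readers in each input library (log axis; symbols mark the library number, lines the mean of 3 libraries per condition); IGF2BP3 is left out because it was listed at 0 in 4 of the 6 libraries. IGF2BP2 sits higher in all 3 hypoxia libraries and ELAVL1 lower, while hypoxia library 3 is the lowest hypoxia library for YTHDF2, YTHDF3, YTHDC1 and YTHDC2.

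Of the 9 readers, 8 passed the filter on low values and were tested; IGF2BP3 did not pass. IGF2BP2 rose and ELAVL1 fell in hypoxia, and the other 6 did not pass the threshold. Over all tested genes 26.5% were called, 5.4% higher and 21.1% lower, so 2 called readers of 8 is near the share of genes in general. After median-ratio scaling 1 reader was called higher and 0 lower, where 7.34% of tested genes were higher and 7.39% lower (14.7% in all). The readers had a median log2 fold change of -0.16 against -0.26 for all tested genes, and 0.14 against 0.02 after median-ratio scaling. The libraries of both conditions did not overlap for 3 of the 8, IGF2BP2, ELAVL1 and YTHDF1, where 44.1% of all tested genes did not overlap (9.25% with hypoxia above and 34.9% with hypoxia below). In these bulk cultures, fewer cells carrying a transcript and less of it per cell cannot be told apart.

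**Figure D2:**
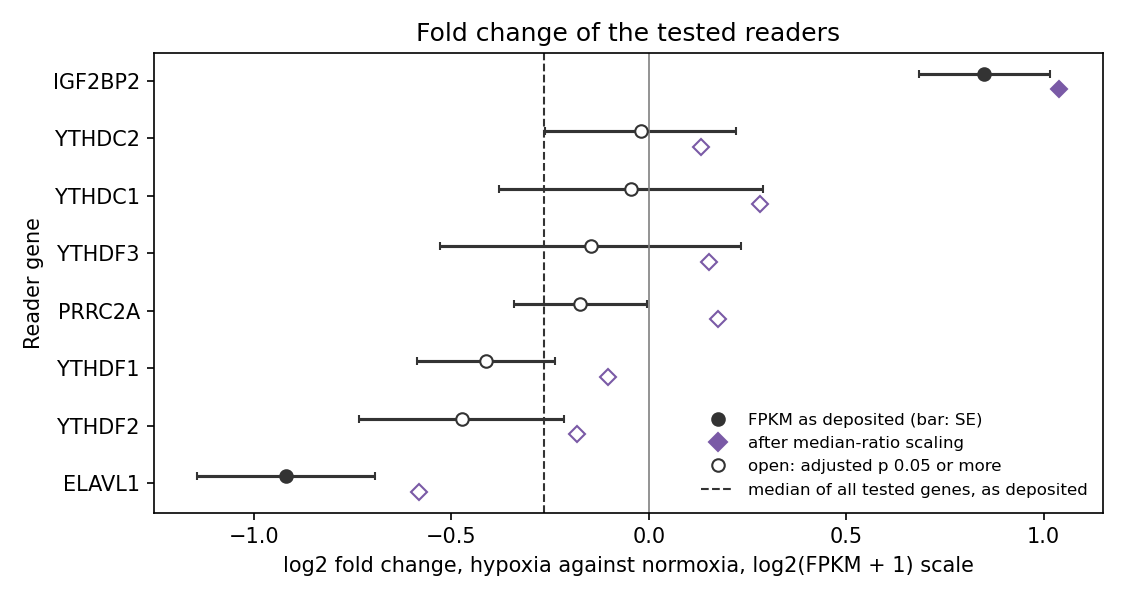
Log2 fold change of the 8 tested readers in hypoxia against normoxia on the log2(FPKM + 1) scale, as deposited (circles, bars are the SE of the limma fit) and after median-ratio scaling (diamonds); filled symbols passed an adjusted p of 0.05. IGF2BP2 lies to the right and ELAVL1 to the left under both scalings, and the ELAVL1 call is lost after scaling.

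IGF2BP2 (chr13:123485628-123650039, minus strand, Sscrofa11.1), the member of its family found in many adult tissues, was the reader that increased. Its FPKM were 0.704, 0.804 and 0.668 in the normoxia libraries and 2.03, 2.69 and 1.69 in the hypoxia libraries. Every hypoxia library lay above every normoxia library, and the lowest hypoxia value was library 3. The means were 0.725 ± 0.0703 and 2.13 ± 0.508 FPKM (SD, n = 3 each), a ratio of 2.94, and limma gave a log2 fold change of 0.85 ± 0.17 (SE) with an adjusted p of 0.0100. On this scale the change of a gene near 1 FPKM is understated; with a pseudocount of 0.1 it was 1.42 (limma adjusted p = 0.0107). After median-ratio scaling it was 1.04 (limma adjusted p = 0.00350). The authors' deposited table gives IGF2BP2 a log2 fold change of 1.56 with a q-value of 4.03e-06 and marks it as significant, as it does 13.5% of all genes. IGF2BP2 entered the test only through its hypoxia libraries, as did 150 genes that were under 1 FPKM in every normoxia library, and 93.3% of those 150 were called higher. Its call was lost without normoxia library 2 (limma adjusted p = 0.0522) or 3 (0.0509).

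IGF2BP3 (chr9:92104848-92272211), a paralog known mainly from embryonic tissue and tumours, was listed at 0.0179, 0.0186 and 0 FPKM in normoxia and at 0 in each hypoxia library. No fold change is given for it. Of these 2 paralogs only IGF2BP2 exceeded 0.1 FPKM in any input library.

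ELAVL1 (chr2:71207096-71248906, plus strand) was the reader that decreased, from the second-highest level of the group. Its FPKM were 29.2, 27.6 and 24.5 in normoxia and 15.8, 17.1 and 9.67 in hypoxia. The hypoxia libraries all lay under the normoxia libraries, with hypoxia library 3 well under the other two. The means were 27.1 ± 2.39 and 14.2 ± 3.98 FPKM, a ratio of 0.525, and limma gave -0.92 ± 0.22 (SE) on the log2 scale with an adjusted p of 0.0236. Relative to the median of all tested genes the change was -0.65. After median-ratio scaling it was -0.58 (limma adjusted p = 0.0695), and the call was also lost without hypoxia library 1 (0.0576) and without normoxia library 1 (0.0910), 2 (0.0977) or 3 (0.0638). Without hypoxia library 3, its lowest, the log2 fold change was -0.68 (limma adjusted p = 0.00278). The authors' deposited table gives ELAVL1 a log2 fold change of -0.93 with a q-value of 0.0445, a level under 0.05 that 13.7% of its genes reached, and does not mark it as significant; the genes it marks all changed at least 2-fold.

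YTHDF1 (chr17:62329302-62341413, minus strand), which is best known for acting on translation, had 6.70, 7.16 and 9.28 FPKM in normoxia and 4.83, 6.02 and 5.69 in hypoxia. The hypoxia libraries all lay lower, but the gap between the groups was smaller than the spread within normoxia. Its log2 fold change was -0.41 (SE 0.18, limma adjusted p = 0.129), and -0.10 after median-ratio scaling.

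YTHDF2 (chr6:85716983-85726473, plus strand), the paralog that recruits the deadenylase complex, had 7.18, 6.41 and 6.71 FPKM in normoxia and 5.04, 6.57 and 2.81 in hypoxia. Hypoxia library 2 fell inside the normoxia range, while libraries 1 and 3 lay under it. The log2 fold change was -0.47 (SE 0.26, limma adjusted p = 0.230) and -0.20 without hypoxia library 3.

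YTHDF3 (chr4:70887105-70928807, minus strand) had 8.49, 7.26 and 6.54 FPKM in normoxia and 7.61, 11.3 and 3.11 in hypoxia. The hypoxia libraries held both its highest and its lowest value. The log2 fold change was -0.15 (SE 0.38, limma adjusted p = 0.819), and it was 0.30 (limma adjusted p = 0.217) without hypoxia library 3.

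The nuclear reader YTHDC1 (chr8:66086523-66122710, plus strand) had 15.8, 13.6 and 10.6 FPKM in normoxia and 14.9, 18.8 and 7.20 in hypoxia. Again the hypoxia range enclosed the normoxia range. Its log2 fold change was -0.04 (SE 0.33, limma adjusted p = 0.944). It was 0.28 when libraries were scaled and 0.33 without hypoxia library 3 (limma adjusted p = 0.169), so no direction can be given. YTHDC2 (chr2:117897260-118092175, plus strand), the helicase, had 1.18, 1.02 and 0.791 FPKM in normoxia and 1.07, 1.62 and 0.394 in hypoxia, with the same libraries high and low as for YTHDC1. Its log2 fold change was -0.02 (SE 0.24, limma adjusted p = 0.966).

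PRRC2A (chr7:23740144-23756066, plus strand), the most abundant reader, had 35.3, 43.2 and 40.3 FPKM in normoxia and 29.7, 34.8 and 41.1 in hypoxia. The ranges overlapped, and hypoxia library 3 was its highest hypoxia library. The log2 fold change was -0.17 (SE 0.17, limma adjusted p = 0.503) and 0.17 after median-ratio scaling. For these 6 readers the authors' deposited table lists q-values from 0.619 (YTHDF2) to 0.824 (PRRC2A).

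Hypoxia library 3 was the lowest hypoxia library for 6 of the 8 tested readers (all but YTHDF1 and PRRC2A), against 55.5% of all tested genes, and hypoxia library 2 was the highest for 7 of 8, against 48.9%. On the log2(FPKM + 1) scale YTHDF3 in hypoxia library 3 lay 0.88 under its hypoxia mean, lower than all but 4.50% of tested genes, and YTHDC1 lay 0.74 under, lower than all but 9.49%. The median tested gene lay 0.13 under. PRRC2A and YTHDF1 went the other way in that library, 0.23 and 0.04 above their hypoxia means. In normoxia a similar split appeared at a smaller scale: YTHDC1 in library 3 lay 0.29 under its normoxia mean and YTHDF1 0.25 above. The spread was larger in hypoxia than in normoxia for 7 of the 8 readers (SD of FPKM), all but YTHDF1, and for 74.2% of all tested genes. The lower median FPKM of hypoxia library 3 moves with these values, and its part in them was not tested.

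**Figure D3:**
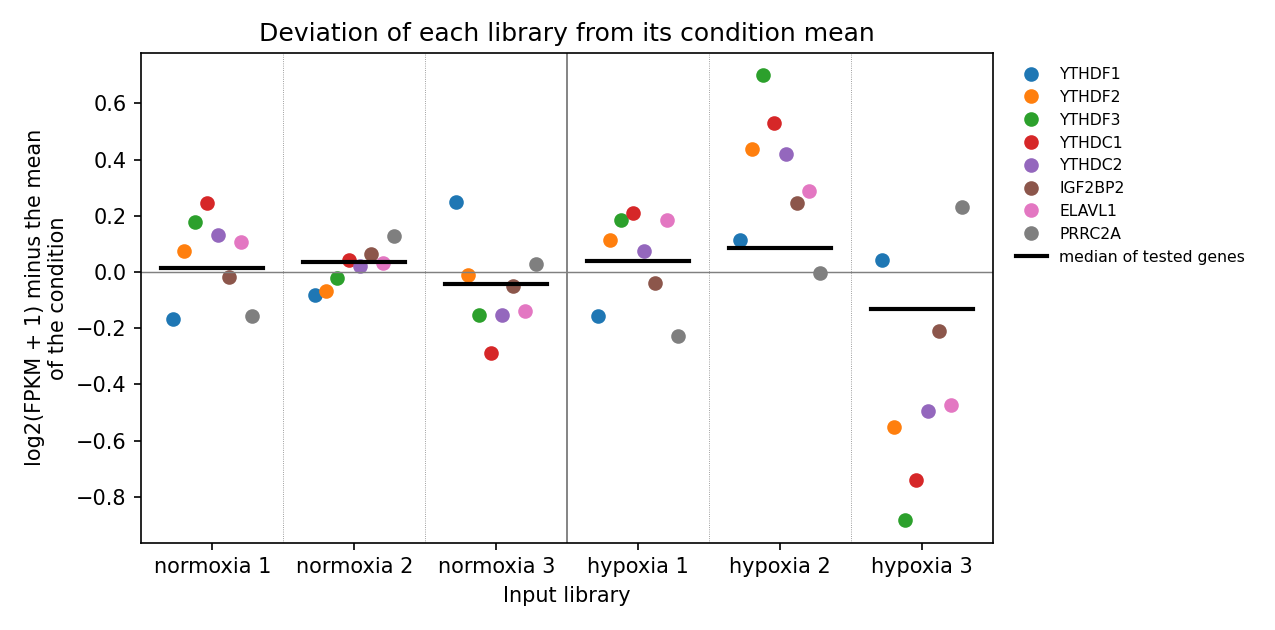
Deviation of 8 readers (points) and of the median tested gene (black bars) from the mean of their condition, per input library, on the log2(FPKM + 1) scale. In hypoxia library 3 YTHDF2, YTHDF3, YTHDC1, YTHDC2 and ELAVL1 lie 0.47 to 0.88 under the hypoxia mean, while PRRC2A lies 0.23 above it.

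Ratios within a library do not depend on the scaling of that library, so paralogs were compared in this way for 4 pairs. YTHDC1 was 13.4, 13.3 and 13.4 times as high as YTHDC2 in the normoxia libraries, and 14.0, 11.6 and 18.3 times in hypoxia. The SD of this ratio was 0.0385 in normoxia and 3.40 in hypoxia, and the groups overlapped (two-sided exact permutation p = 0.7, adjusted p = 0.9 over 4 ratios). The permutation test compares means of log2 ratios, so the difference in spread was not tested. For single genes the SD of FPKM was larger in hypoxia in 74.2% of all tested genes. YTHDF3 was 1.18, 1.13 and 0.975 times as high as YTHDF2 in normoxia and 1.51, 1.72 and 1.11 times in hypoxia, again with overlap (exact permutation p = 0.3, adjusted p = 0.9). The ratio of YTHDF1 to YTHDF2 gave an exact permutation p of 0.9 and that of YTHDF1 to YTHDF3 one of 0.7. With 3 libraries against 3 the smallest p possible is 0.1. Each library was also left out in turn. Without hypoxia library 3, YTHDF3 to YTHDF2 (1.51 and 1.72 against at most 1.18) no longer overlapped (exact permutation p = 0.1). Nor did YTHDF1 to YTHDF3 (0.634 and 0.532 against at least 0.789, exact permutation p = 0.2). Without hypoxia library 2 the same held for YTHDC1 to YTHDC2 (14.0 and 18.3 against at most 13.4, exact permutation p = 0.1). How often other gene pairs lose their overlap in this way was not tested. The 3 YTHDF genes summed to 21.9 ± 0.937 FPKM in normoxia and 17.7 ± 6.16 in hypoxia. YTHDF1 made up 27.6%, 25.2% and 49.0% of that sum in the hypoxia libraries, against 29.9%, 34.4% and 41.2% in normoxia.

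The genes whose profile over the 6 input libraries lay nearest to that of a called reader were found by the root mean square distance between log2(FPKM + 1) values, each centred on its normoxia mean, among 9264 other tested genes with a symbol. For IGF2BP2 they were NRAP, at 0.306 to 0.472 FPKM in normoxia and 1.23 to 1.60 in hypoxia (distance 0.09), and IGFBP7, which codes for a secreted binding protein, at 48.4 to 53.2 and 80.8 to 102 FPKM (0.09). Only 4 genes lay within a distance of 0.1 of IGF2BP2. The log2(FPKM + 1) scale understates the change of a gene near 1 FPKM, as IGF2BP2 and NRAP are. A small distance between these genes and IGFBP7 therefore does not mean an equal ratio of FPKM. For ELAVL1 they were HMGN4 (distance 0.03), a nucleosome-binding protein gene at 5.59 to 6.53 and 1.62 to 3.71 FPKM, and MTMR8 (0.05), and 58 genes lay within 0.1. HMGN4 and MTMR8 shared with ELAVL1 the low value in hypoxia library 3. The distance included that library, so this likeness follows from how the genes were picked. Hypoxia library 3 was the lowest hypoxia library for 55.5% of all tested genes.

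The mRNAs of the readers themselves carried m6A peaks. The authors' deposited peak lists give stretches where the IP library was enriched over input, with a log2 enrichment and a p-value per peak, all of them the authors' own values. Positions are on Sscrofa11.1, counted from 1, and spans include introns. Over all genes the normoxia list held 25346 peaks with a median length of 687 bases, and the hypoxia list 24444 with a median of 449. On readers the normoxia list held 13 peaks and the hypoxia list 17. In each case they lay on the same 7 genes: YTHDF1, YTHDF2, YTHDF3, YTHDC1, IGF2BP2, ELAVL1 and PRRC2A. YTHDC2 and IGF2BP3 had none in either list. Among all tested genes 85.8% had a peak in the normoxia list, 79.8% in the hypoxia list and 77.3% in both, so 7 of 8 tested readers is near those shares. Of the tested genes with a mean of 0.5 to 2 FPKM, where YTHDC2 lies, 88.3% had a peak in either list and 73.0% in both. Of the reader peaks, 12 of 13 in normoxia and 15 of 17 in hypoxia overlapped a peak on the same gene in the other list. The share of all peaks that overlap in this way was not determined, so these counts cannot be called high or low. A long span with introns can also cover a short peak.

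**Figure D4:**
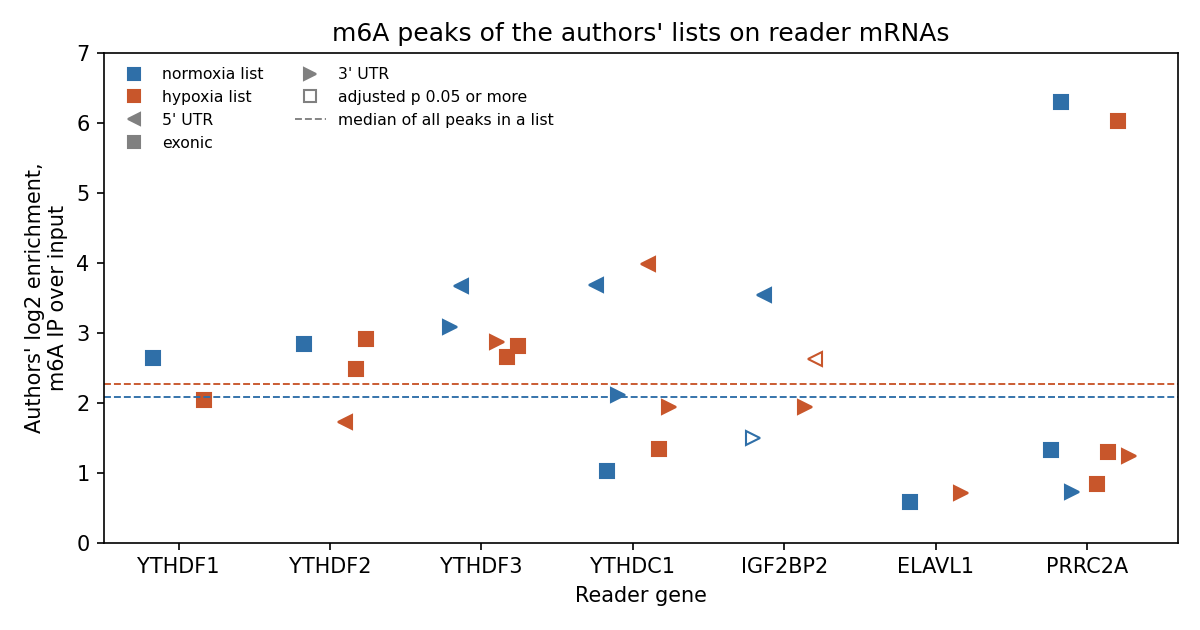
The authors' log2 enrichment of IP over input for each m6A peak on a reader mRNA, in the normoxia list (blue) and the hypoxia list (orange); symbols give the annotated region, open symbols have an adjusted p of 0.05 or more, and dashed lines are the medians of all peaks in each list. PRRC2A holds both the highest peak (6.30 and 6.03) and some of the lowest, and ELAVL1 has a single weak peak in each list.

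PRRC2A carried the strongest reader peak. It spanned chr7:23749358-23751708 in normoxia, annotated as exonic, with a log2 enrichment of 6.30, above 99.8% of the peaks in that list, and chr7:23749418-23751738 in hypoxia with 6.03, above 99.7%. The other PRRC2A peaks were weak. An exonic peak at chr7:23744983-23746363 had 1.33 in normoxia and its hypoxia counterpart (chr7:23745013-23746363) 1.30, and a short 3′ UTR peak near the end of the gene had 0.72 and 1.24. A further exonic peak at chr7:23744351-23744704 was listed in hypoxia only, with 0.84.

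On the YTHDF genes most peaks were annotated as exonic or 3′ UTR, as were most peaks over all genes. Of all normoxia peaks 32.8% were exonic and 45.8% 3′ UTR, and of all hypoxia peaks 35.8% and 43.7%. YTHDF2 had one exonic peak in normoxia, chr6:85722216-85726473, with a log2 enrichment of 2.83. In hypoxia the same stretch was listed as a pair of peaks, chr6:85722216-85722606 (2.48) and chr6:85722786-85726473 (2.91), and a 5′ UTR peak at chr6:85721133-85722156 (1.73) was listed in hypoxia only. Both long peaks end at the last base of YTHDF2 as annotated in the deposited tables (85726473), whereas the RefSeq locus of the same assembly runs on to 85756750, so a continuation past that base would not be listed under this gene. YTHDF3 had a peak annotated as 3′ UTR, chr4:70889800-70912425, with 3.08 in normoxia. It spanned 22626 of the 41703 bases of the gene. The hypoxia list had 3 peaks in that span, annotated as 3′ UTR (2.87), exonic (2.66) and exonic (2.81). A 5′ UTR peak on YTHDF3 (chr4:70928478-70928807, log2 enrichment 3.67) was listed in normoxia only, and no differential peak was listed there.

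YTHDF1 was the one reader with a listed difference in m6A between conditions. Its exonic peak spanned chr17:62330407-62335277 with a log2 enrichment of 2.65 in normoxia and chr17:62330347-62335217 with 2.04 in hypoxia. For chr17:62330377-62335247 the authors' deposited table of differences in m6A lists a log2 value of -0.35, lower in hypoxia, with a p-value of 0.00562 and an adjusted p-value of 0.0832. Among the 687 listed differences that were lower in hypoxia, the median was -0.52, and 78.5% were larger in size than that of YTHDF1. Of all tested genes 9.62% had a differential peak, so 1 reader of 8 is close to that share; 5.59% had a negative one. No reader peak was listed at an adjusted p-value under 0.05, against 3.87% of tested genes. The mRNA of YTHDF1 was also lower in every hypoxia library, as given above, without passing the test.

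YTHDC1 had 3 peaks in each list, with the same 3 regions covered. The 5′ UTR peak, chr8:66086553-66104477 in normoxia, had a log2 enrichment of 3.69 and its hypoxia counterpart 3.98, above 93.2% and 95.0% of the peaks in their lists. The exonic peak had 1.02 and 1.34, and the 3′ UTR peak, chr8:66120142-66121991 in normoxia, 2.11 and 1.94. Of its listed peaks the one annotated as 5′ UTR thus had the highest enrichment in both conditions. That peak spanned 17925 bases in normoxia and 17865 in hypoxia, of a gene of 36188 bases. Such a span does not place the enrichment at the 5′ end itself.

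IGF2BP2 had a 5′ UTR peak and a 3′ UTR peak in each list, at opposite ends of a gene of 164412 bases. The 3′ UTR peak ended at the last base of the gene in both, chr13:123485628-123485958 in normoxia (log2 enrichment 1.50, the authors' adjusted p-value 0.0676) and chr13:123485628-123485838 in hypoxia (1.94, 4.79e-05). The 5′ UTR peak had 3.54 in normoxia (adjusted p-value 0.0100) and 2.63 in hypoxia (0.0851). A different end of the gene thus had the peak with an adjusted p-value under 0.05 in each list. Both peaks were nevertheless in both lists, and no differential peak was listed for IGF2BP2. The input level was low, with a mean of 0.725 FPKM in normoxia and 2.13 in hypoxia. Passing the threshold in only one condition does not by itself show a difference between conditions. In normoxia its 5′ UTR peak was listed as a span of 122091 bases, against 61 bases in hypoxia. ELAVL1 had one peak of 180 bases per list, chr2:71244599-71244778 in normoxia (0.58) and chr2:71244629-71244808 in hypoxia (0.71), above 3.40% and 3.17% of the peaks in their lists. The pair overlapped over most of their length, and the peak was annotated as exonic in normoxia and as 3′ UTR in hypoxia.

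Genes that act with the readers were followed in lists of writers, erasers and partners, whose counts are read against the 5.4% of all tested genes called higher and the 21.1% called lower. Writers here are genes of methyltransferases and of their cofactors and complex partners, including some that act on rRNA. Of 11 tested 0 rose and 1 fell. The gene that fell was TRMT112, the cofactor of the rRNA methyltransferase METTL5. It had 50.3 ± 1.16 FPKM at 21% O2 and 28.1 ± 7.46 at 1% O2. Its log2 fold change was -0.85 (limma adjusted p = 0.0219, and 0.282 with scaling). Leaving out hypoxia library 1 (0.0750) or any one normoxia library (up to 0.0893) ended this call. That is 1 of 11, under the 21.1% of all tested genes; at an unadjusted p under 0.05 there were 2. The list median was -0.31, against -0.26 for all tested genes. Of the erasers, the demethylases that remove the mark, ALKBH5 rose from 10.1 ± 0.723 to 16.7 ± 1.06 FPKM (0.67, limma adjusted p = 0.0125, 0.0128 after scaling), and FTO fell from 19.0 ± 1.15 to 13.1 ± 1.79 (-0.51, adjusted p = 0.0457, 0.656 after scaling). The ALKBH5 call was lost without hypoxia library 1 or any one normoxia library (limma adjusted p up to 0.0612), and that of FTO without any library but hypoxia 3 (up to 0.167) or without the filter on low values (0.0588).

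Other proteins reported to bind m6A RNA gave 11 tested genes, of which 0 rose and 2 fell, near the 21.1% called lower over all tested genes, with a median of -0.44. They were G3BP1, a stress granule protein, with 24.0 ± 2.02 and 14.2 ± 3.65 FPKM (a log2 difference of -0.74, limma adjusted p = 0.0389), and FXR2, a paralog of the fragile X protein (-0.55, adjusted p = 0.0456); after median-ratio scaling neither passed (0.162 and 0.537), and both calls were lost without hypoxia library 1 or any one normoxia library, that of FXR2 also without hypoxia library 2. Without the filter on low values they were lost too (limma adjusted p = 0.0670 for G3BP1 and 0.0615 for FXR2). Of the 21 genes of deadenylation and decay 0 rose and 3 fell, under the 21.1% called lower over all tested genes, with a median of -0.19: the CCR4-NOT subunit genes CNOT11 (-0.84, limma adjusted p = 0.00881) and CNOT9 (-0.79, 0.0163) and the helicase gene UPF1 (-0.62, 0.0184). None of these 3 passed after scaling (0.0578, 0.0695 and 0.362). The call of CNOT11 was lost without normoxia library 2 (0.0511), that of UPF1 without normoxia library 2 or 3 or hypoxia library 1, and that of CNOT9 without hypoxia library 1 or any one normoxia library. CNOT1, the scaffold that YTHDF2 contacts, had a log2 fold change of 0.04 (limma adjusted p = 0.944); it was chosen after its values were seen.

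Among nuclear partners of YTHDC1, the list with the lowest median (-0.72), 4 of 8 tested genes fell and 0 rose, against 21.1% lower among all tested genes. After scaling 2 of the 8 were lower, against 7.39% of all tested genes. The list was chosen with earlier results of these data known, so these counts are no independent test of it. EXOSC10, a nuclease of the nuclear exosome, fell from 10.4 ± 0.422 to 4.33 ± 0.316 FPKM, a log2 difference of -1.10 with a limma adjusted p of 0.00225 (0.0133 when scaled). The splicing factor gene SRSF7 fell from 9.56 ± 1.19 to 4.36 ± 1.51 (-1.01, adjusted p = 0.0194, 0.0447 after scaling). The export receptor gene NXF1 (-0.79, adjusted p = 0.00859) and SAFB (-0.66, adjusted p = 0.0363) fell as well, and after scaling had adjusted p-values of 0.0913 and 0.222. The call of SRSF7 was lost without hypoxia library 1 or any one normoxia library, and so was that of SAFB, which was lost also without the filter on low values (0.0593). YTHDC1 itself did not pass the test under either scaling. Of 10 partners of the IGF2BP proteins, 0 passed limma as deposited, 1 had an unadjusted p under 0.05 (LARP1, -0.58, adjusted p = 0.0924), and the median was -0.28. After scaling 1 was higher, PABPC4, which codes for a poly(A)-binding protein (0.60, limma adjusted p = 0.0429); it was chosen after its values were seen.

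**Figure D5:**
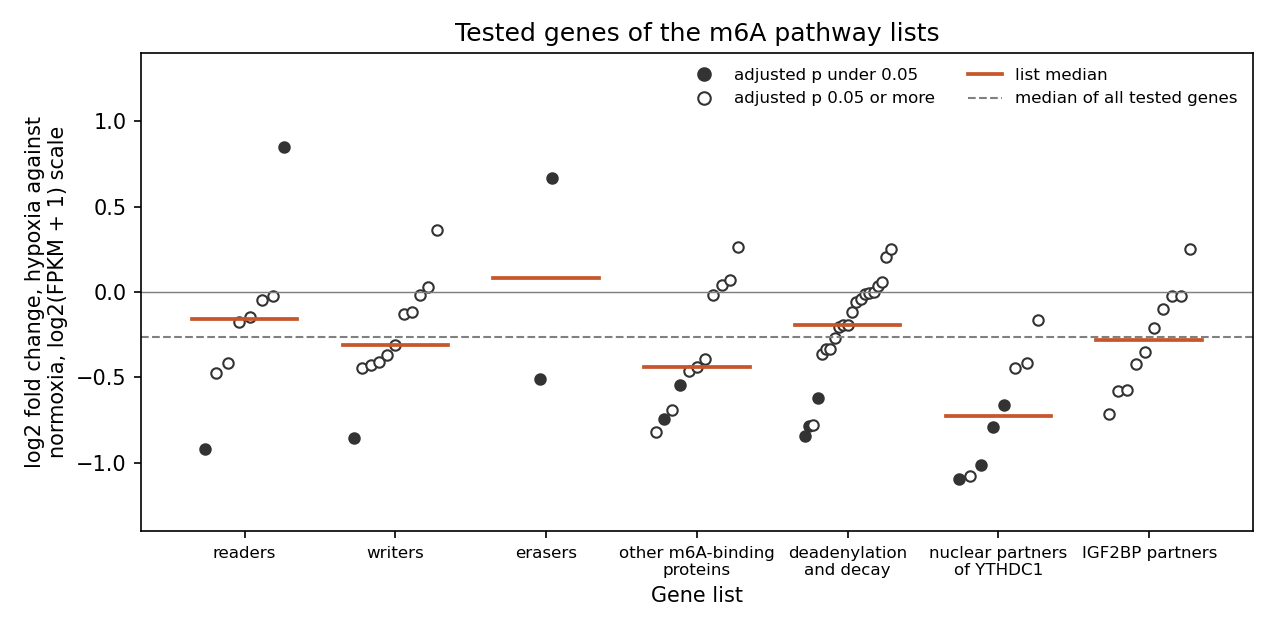
Log2 fold change of each tested gene in the reader list and 6 lists of the m6A pathway, hypoxia against normoxia on the log2(FPKM + 1) scale; filled points passed an adjusted p of 0.05, orange bars are list medians and the dashed line is the median of all tested genes (-0.26). The nuclear partners of YTHDC1 have the lowest median (-0.72), and IGF2BP2 and ALKBH5 are the 2 called genes above 0. All lists were chosen with earlier results of these data known.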

How the data were processed

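The deposited expression table holds FPKM for 6 input libraries, per the file headers; the authors' deposited comparison adds, for each gene, its log2 change and the p-value and q-value, and their peak tables a log2 enrichment or difference with p-value and adjusted p-value. HISAT2 2.0.4, StringTie 2.1.2, HOMER 4.10, edgeR 4.1, fastp 0.19.4 and FastQC are named, with Sscrofa11.1, per the submitters' processing notes; neither the tool behind each table nor any pooling of replicates for peaks is given there. Low FPKM (under 0.2, genes with 1 transcript) showed no whole-read steps: the most frequent ratio between a pair of libraries held at most 1.05% of genes, so depth is unknown.

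Readers were matched by symbol. The test was limma 3.58.1 in R 4.3.3 (trend, robust) on log2(FPKM + 1). It was checked on simulated data with independent noise per gene and no shift shared by a library. That check therefore does not cover the library shifts seen here. Alternatives were median-ratio scaling, a pseudocount of 0.1, no filter, a replicate block, no robust estimation and leaving out each library. Peak starts were read as counted from 0, since 3369 normoxia peaks begin 1 base before their gene and 0 at it. The sign of differential peaks was checked against the lists: 121 negative ones overlapped peaks of normoxia but not hypoxia, and 0 the reverse. Named were all readers and, per list, up to 4 called genes with the largest change, or else that with the lowest p. The members and lists were chosen with earlier results of these data known.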

Additional observations from a re-analysis of the deposited data

How the results depend on the processing

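Median-ratio scaling gave 1501 called genes against 2699, 1 called reader (IGF2BP2) against 2, and 4 called genes of the pathway lists against 12, of which PABPC4 was not among the 12. Scaling turned the sign of readers that had not passed: YTHDF3 to 0.15, YTHDC1 to 0.28, YTHDC2 to 0.13 and PRRC2A to 0.17. Without the filter on low values 8 pathway genes were called; FTO, G3BP1, FXR2 and SAFB were lost. Leaving out 1 library at a time gave 1132 to 4329 called genes (1132 without normoxia library 2, 1394 without 3, 1546 without 1, 1420 without hypoxia library 1, 4329 without 3), 0 to 2 called readers (0 without normoxia library 2 or 3), 2 to 17 pathway genes (2, 3 and 4 without normoxia libraries 2, 3 and 1, and 3 without hypoxia library 1) and 0 to 2 paralog ratios without overlap. Leaving out libraries moved YTHDF3 between -0.50 and 0.30, YTHDC1 between -0.31 and 0.33, and YTHDC2 between -0.23 and 0.23; the cause was not tested. IGF2BP2 stayed positive (0.73 to 0.95) and ELAVL1 negative (-1.06 to -0.68). An adjusted p-value under 0.05 for peaks kept 12 of 13 normoxia and 16 of 17 hypoxia reader peaks but 0 of 1 differential peaks. Asking for an overlap of 50% of the shorter peak changed no count. A short peak inside a longer one always meets that rule, so it is a weak check.

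The replicate number as a block gave 3463 called genes, 2 called readers and 16 pathway genes. The labels do not say that a number marks a shared animal or day. Deviations of same-numbered libraries correlated at 0.586, 0.0398 and 0.697 across 10196 genes. Of the normoxia libraries 2 of 3 matched their own number best, while normoxia library 1 matched hypoxia library 2 better (0.641). These values do not settle if the numbers mark pairs, and the labels name none, so the main test was unpaired.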
